A study of Mus musculus with 14 samples.

Results

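The lipoprotein lipase system and the proteins that carry fatty acids into muscle were described through 9 genes, Lpl, Lmf1, Gpihbp1, Angptl4, Cd36, Slc27a1, Slc27a4, Fabp3 and Vldlr. They were chosen by symbol, and the 9 symbols matched 9 of the 54532 genes in the deposited tables. All 9 passed the filter on low counts, which left 15458 genes for testing. Lipoprotein lipase is made by muscle fibers and fat cells, crosses to the luminal face of capillary endothelium, and there splits the triglyceride of chylomicrons and very low density lipoproteins. The fatty acids that it frees enter the fiber through membrane proteins and are bound by a small carrier protein in the cytosol. In skeletal muscle the system is known for supplying fuel during fasting and exercise, and for being controlled by the nutritional state.

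RNA was sequenced from skeletal muscle of male FVB/N mice with (OE) or without (CT) endothelial c-Myc overexpression, which were given a control diet (CTD) or a western diet (WD). OE mice carried Tet-O-Myc, a human c-Myc transgene on the Y chromosome, together with Cdh5-tTA, a transactivator driven by an endothelial promoter. CT littermates carried Tet-O-Myc and lacked tTA, and in both genotypes doxycycline, which keeps the transgene silent, was withdrawn at 4 to 6 weeks of age. By the labels the diets lasted 20 weeks, and each CT group has 3 libraries (CT-CTD and CT-WD) and each OE group 4 (OE-CTD and OE-WD). Soleus and gastrocnemius are the muscles named in the study's methods, and which of them a library came from is not given in the sources used here. The study's own text gives a shorter time on diet for the transcriptome than the labels do, and its legend ties the smaller group size to the control diet, whereas the labels tie it to the CT genotype. Exchanging the names CT-WD and OE-CTD would give the group sizes of the legend. The labels were kept, although there is reason to doubt the names of these 2 groups, and the doubt was passed on as a question. With the names exchanged, the diet comparison in CT and the genotype comparison on CTD would trade places, as would the diet comparison in OE and the genotype comparison on WD. The genotype average would become the diet average and the diet average the genotype average, and the interaction would be the same. Every difference given below between genotypes would then be one between diets.

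Summed counts per library were 24101226 to 25054855 in the CT-CTD group, 21833839 to 26518734 in the CT-WD group, 22083340 to 28519159 in the OE-CTD group and 22033140 to 27698046 in the OE-WD group. Levels are given as CPM, the count of a gene relative to a library total scaled by TMM, in the order of the replicate numbers, and group values as mean ± SD. The labels do not say that libraries of a group came from separate animals, so p-values measure the spread between these libraries, which may be technical. In the libraries' descriptions OE-CTD 1 to 3 share a number, OE-CTD 4 has another and all 4 OE-WD libraries share one of their own, while no 2 CT libraries share any, and what the numbers mark is not given. Compared in pairs, libraries gave a chi-square for each degree of freedom of 7.32 to 9.84 among OE-CTD 1 to 3 and 33.7 to 39.4 between them and OE-CTD 4. It was 7.98 to 14.1 among OE-WD 1 to 3 and 35.7 to 39.3 between them and OE-WD 4, which shares their number, and 15.4 to 24.9 in CT-CTD and 26.9 to 46.7 in CT-WD. OE libraries that share a number may be related, and p-values for genotype and for diet in OE could then be too small. No number occurs on both diets in OE, and none occurs in both genotypes. A diet difference in OE, or a genotype difference, therefore cannot be told apart from one between these numbers. The 8 markers of skeletal muscle were detected in every library, with Acta1 the most abundant per length and a summed level between 123862 and 177669 CPM. OE-CTD 4 and OE-WD 4 stood apart from the other libraries of their groups, with 172717 and 177669 CPM of these markers against at most 129462 and 138201 CPM in the others. Calls were therefore also made without both libraries, a choice made after the data were seen. Without them Vldlr and Gpihbp1 were called in the genotype average at log2 fold changes of -0.55 and -0.30 (edgeR adjusted p = 0.00745 and 0.0447, against 2.45e-05 to 0.785 and 0.00622 to 0.334 over all alternatives), and no other call among the 9 genes was gained or lost.

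Per length, the 9 genes spanned a wide range. Mean FPKM over the 14 libraries, as deposited by the authors, was 1077 ± 244 for Fabp3, 118 ± 12.7 for Cd36 and 72.2 ± 13.2 for Lpl (SD, n = 14). Slc27a1 followed at 29.7 ± 3.13, Vldlr at 22.6 ± 5.24, Gpihbp1 at 16.1 ± 3.23, Angptl4 at 8.52 ± 2.97, Slc27a4 at 3.72 ± 0.407 and Lmf1 at 0.935 ± 0.111 FPKM. The ranges over libraries of neighbors in this order overlapped from Slc27a1 down to Slc27a4, and did not overlap between Fabp3, Cd36, Lpl and Slc27a1 nor between Slc27a4 and Lmf1. Between libraries, Angptl4 varied most, with a coefficient of variation of 34.9%, and Slc27a1 least, with 10.5%.

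Averaged over both diets, Vldlr and Gpihbp1 were lower in OE than in CT muscle as labeled, and the levels of the other 7 genes did not pass the test in any comparison of the edgeR fit with the filter and without a block. For Gpihbp1 the log2 fold change was -0.15 on CTD, where the genotypes overlapped, and -0.54 on WD, with neither called in that fit. Both calls of the genotype average were lost with slow fiber markers as a covariate, at log2 fold changes of -0.40 for Vldlr and -0.29 for Gpihbp1, where 2.64% of all genes were called. They were also lost with endothelial markers as a covariate, at -0.13 and -0.48, where 0 of all 15458 genes were called. The sums of both marker sets had higher means in OE on both diets, so each covariate may take up part of a genotype difference. Both calls would be for diet if CT-WD and OE-CTD were exchanged. In the genotype comparison averaged over diets, 2 of the 9 genes were called at an edgeR adjusted p-value under 0.05, where 8.49% of all genes tested were, and 2 passed at an unadjusted p-value under 0.05, where 23.9% did. For OE-CTD against CT-CTD, 1 gene was called, against 2.67% of all genes, and 2 passed at the unadjusted threshold, against 15.9%. For OE-WD against CT-WD, edgeR called 0 of the 9, against 0.725% of all genes, with 3 at the unadjusted threshold, against 16.9%, whereas DESeq2 called 2, against 3.71% of all genes, and limma on FPKM called 0, against 0.138%. The shares over all genes moved with single libraries, to 4.45% without CT-WD 2 and 15.7% without CT-WD 1 in the genotype average. For OE-CTD against CT-CTD they moved to 0.485% without CT-CTD 3 and 3.89% without CT-WD 1. For OE-WD against CT-WD they moved to 0.026% without OE-WD 2 and 9.47% without CT-WD 1. In bulk muscle, fewer cells of a type and less RNA per cell cannot be told apart.

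Diet gave no call among the 9 genes in the edgeR fit without a replicate block. With the replicate number as a block, edgeR called Angptl4 for diet in CT (log2 fold change 0.72, edgeR adjusted p = 0.0298, against 0.0298 to 0.981 over all alternatives). It also called Fabp3 for diet in OE (log2 fold change -0.42, edgeR adjusted p = 0.0484). Libraries of the same number correlated at 0.385, 0.123 and 0.203 in CT and at 0.0711, 0.138, 0.142 and 0.338 in OE. The labels name no pairing in either genotype. Of all genes, 0.0841% were called with the block for diet in CT and 0.0129% for diet in OE. Without the block, for CT-WD against CT-CTD, which asks how CT muscle differed after western diet, 0 genes were called, against 0% of all genes, and 2 passed at the unadjusted threshold, against 7.28%. For OE-WD against OE-CTD the counts were 0 and 1, against 0.00647% and 4.2%. Averaged over genotypes they were 0 and 0, against 0.00647% and 5.96%, and for the diet by genotype interaction 0 and 0, against 0% and 5.92%. DESeq2 and limma on FPKM also called 0 members in these 4 comparisons. The shares for the members rest on 9 genes throughout. OE-WD shares its libraries between the comparisons with OE-CTD and with CT-WD, and each of the other groups is shared in the same way.

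**Figure D1:**
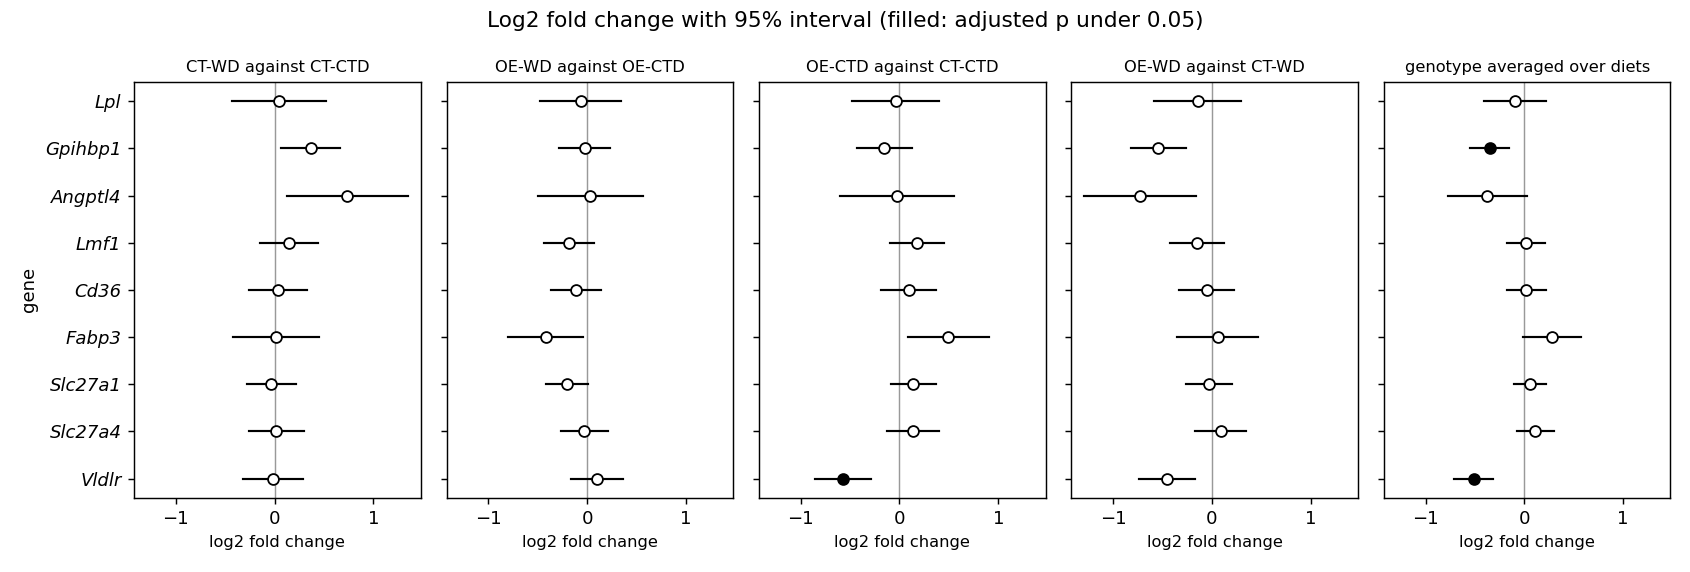
Log2 fold change (horizontal axis) of each of the 9 genes (vertical axis) in the 4 comparisons between groups and in the genotype comparison averaged over diets. Points are edgeR estimates, bars are 95% intervals, and filled points mark an adjusted p-value under 0.05, which are Vldlr for OE-CTD against CT-CTD and Vldlr and Gpihbp1 for the genotype average.

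Vldlr (ENSMUSG00000024924, protein-coding, chromosome 19, 27216484 to 27254231, plus strand) encodes the very low density lipoprotein receptor, which binds triglyceride-rich lipoproteins at the cell surface. CT libraries had 251, 302 and 203 CPM on CTD and 209, 298 and 240.4 CPM on WD. The OE libraries had 163, 167, 154 and 195 CPM on CTD and 187, 174, 187 and 179 CPM on WD. All 8 OE libraries lay below the lowest of the 6 CT libraries, and the libraries of the 2 diets overlapped in each genotype. The share of all genes with such a split over both diets was not counted. Within a diet, 15.5% of all genes had separate genotype groups on CTD and 11.6% on WD. Averaged over diets, Vldlr fell by 0.51 on the log2 scale in OE (SE 0.0935, 95% interval -0.71 to -0.31, edgeR adjusted p = 0.00454), with 8 of 8 OE libraries below the CT mean of their diet. The log2 fold change was -0.57 on CTD (SE 0.132, edgeR adjusted p = 0.0338) and -0.45 on WD (SE 0.132, edgeR adjusted p = 0.112). The difference between them, 0.12 with a 95% interval of -0.28 to 0.52, did not pass the test (edgeR adjusted p = 0.959).

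Markers of slow fibers, the oxidative fiber type, summed to a higher mean in OE on both diets. On CTD all 7 had a higher mean in OE, whereas on WD 5 of the 7 had a lower one (Tnnt1, Tnni1, Tnnc1, Myl2 and Myl3), with a median log2 fold change of -0.024 against 0.0056 over all genes. Myh7 (962 ± 122 CPM in CT-WD and 1364 ± 212 CPM in OE-WD) and Atp2a2 (1296 ± 120.1 and 1762 ± 95.4 CPM) were the 2 with a higher mean there. The summed level of the 7 slow fiber markers, with Myl3 the most abundant per length and none at 0, was 4877, 3999 and 5476 CPM in CT-CTD and 4611, 4710.2 and 5181 CPM in CT-WD. It was 5752, 5608, 5401 and 6467 CPM in OE-CTD and 5647, 5663, 4959 and 5903 CPM in OE-WD, and 1 of the 7, Atp2a2, was called in the genotype average, against 8.49% of all genes (0.41 ± 0.0800 on the log2 scale, edgeR adjusted p = 0.00630, higher in 8 of 8 OE libraries). With the log2 of this sum as a covariate, Vldlr had a log2 fold change of -0.40 for the genotype average and was no longer called (edgeR adjusted p = 0.115, against 2.45e-05 to 0.785 over all alternatives). The sum itself had a higher mean in OE on both diets, and how far this fit separates genotype from the markers was not tested. On CTD the call was also lost with this covariate (log2 fold change -0.43, edgeR adjusted p = 0.276), with limma on log2(FPKM + 1) (log2 fold change -0.53, limma adjusted p = 0.0791, against 0.00175 to 0.777 over all alternatives) and when CT-CTD 1, CT-CTD 2, OE-CTD 1, OE-CTD 2 or OE-CTD 3 was left out (log2 fold change -0.58 to -0.42, edgeR adjusted p = 0.0659 to 0.185). Limma on log2(FPKM + 0.1) without a filter and the replicate block also ended the CTD call (log2 fold changes -0.55 and -0.63, limma adjusted p = 0.1255 and edgeR adjusted p = 0.0874). CT and OE libraries of the same number correlated at -0.122 to 0.0465 on CTD, so the block cannot decide on this call. On WD Vldlr was called with no filter, DESeq2 and the adipocyte covariate (log2 fold changes -0.45, -0.46 and -0.48, edgeR adjusted p = 0.0273, DESeq2 adjusted p = 0.0390 and edgeR adjusted p = 0.0470). It was also called there without CT-CTD 1 and CT-WD 1 together (-0.57, edgeR adjusted p = 0.0221) and without CT-WD 1 alone (log2 fold change -0.57, edgeR adjusted p = 0.0195, against 0.0195 to 0.860 over all alternatives). The part of fiber type in the Vldlr level beyond this covariate was not tested.

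**Figure D2:**
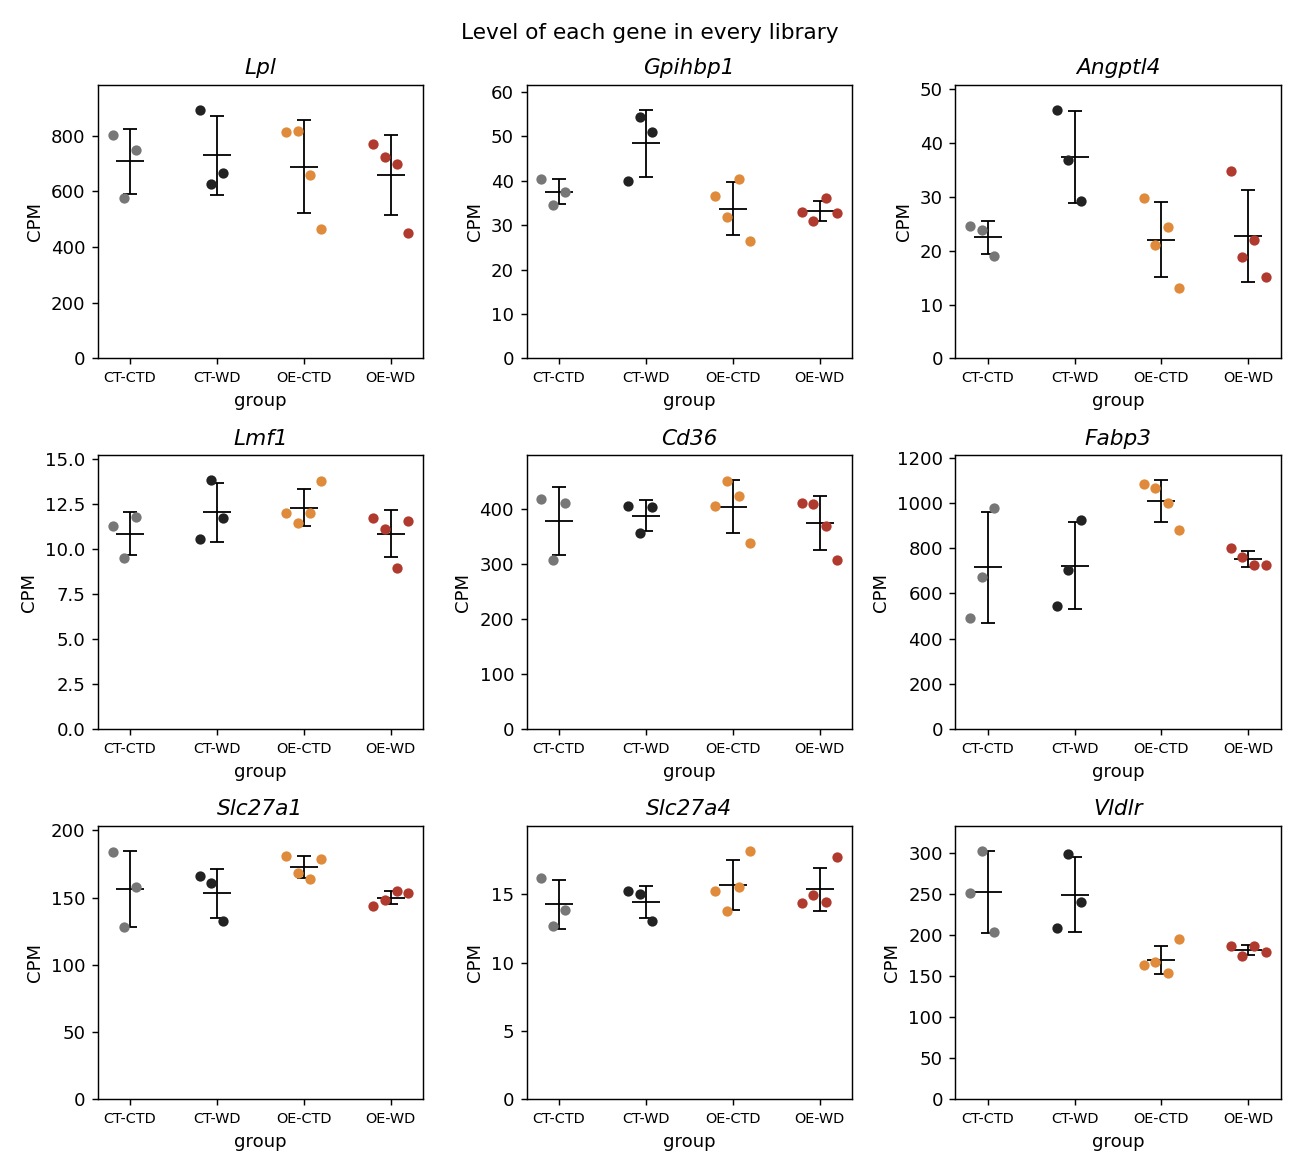
Level of each of the 9 genes in CPM (vertical axis) in every library of the 4 groups (horizontal axis). Points are libraries, placed from left to right by replicate number, and bars show the mean ± SD. For Vldlr the 8 OE libraries lie below all 6 CT libraries, and for Angptl4 the 3 CT-WD libraries lie above the 3 CT-CTD libraries. The share of all genes split like Vldlr was not counted, and 9.63% had separate CT groups between diets.

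Gpihbp1 (ENSMUSG00000022579, protein-coding, chromosome 15, 75596628 to 75599481, plus strand) encodes the protein of capillary endothelium that carries lipoprotein lipase to the vessel lumen and anchors it there. CT-CTD libraries had 40.4, 34.6 and 37.6 CPM and CT-WD libraries 39.95, 54.3 and 51.03 CPM. OE-CTD libraries had 36.5, 31.8, 40.3 and 26.3 CPM and OE-WD libraries 32.99, 30.9, 36.2 and 32.8 CPM. On WD every OE library was below every CT library, whereas on CTD the genotypes overlapped, with OE-CTD 3 near the highest CT-CTD library and OE-CTD 4 lowest of all 14. Averaged over diets, Gpihbp1 fell by 0.35 on the log2 scale in OE (SE 0.0926, 95% interval -0.55 to -0.15, edgeR adjusted p = 0.0302), with 6 of 8 OE libraries below the lowest CT library of their diet. The log2 fold change was -0.15 on CTD (SE 0.131, edgeR adjusted p = 0.634) and -0.54 on WD (SE 0.131, edgeR adjusted p = 0.0635). On CTD it was -0.25 without OE-CTD 3 and -0.054 without OE-CTD 4. For CT-WD against CT-CTD the log2 fold change was 0.37 (SE 0.140, edgeR adjusted p = 0.595), and for OE-WD against OE-CTD -0.023 (SE 0.122, edgeR adjusted p = 0.9999). The interaction of -0.39, with a 95% interval of -0.78 to 0.0064, did not pass the test (edgeR adjusted p = 0.847).

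The call for the Gpihbp1 genotype average was lost when CT-CTD 1, CT-CTD 3, CT-WD 2, CT-WD 3, OE-CTD 2 or OE-WD 2 was left out (log2 fold change -0.35 to -0.30, edgeR adjusted p = 0.0583 to 0.0929) and with limma on log2(FPKM + 1) and the slow fiber covariate (log2 fold changes -0.33 and -0.29, limma adjusted p = 0.0502 and edgeR adjusted p = 0.240, against 0.00622 to 0.334 over all alternatives). Limma on log2(FPKM + 0.1) without a filter and the replicate block also ended the call (log2 fold changes -0.35 and -0.29, limma adjusted p = 0.0824 and edgeR adjusted p = 0.0793). CT and OE libraries of the same number correlated at -0.23 to 0.0465, so the block cannot decide on this call. On WD Gpihbp1 was called with no filter, DESeq2 and the adipocyte covariate (log2 fold changes -0.54, -0.55 and -0.52, edgeR adjusted p = 0.00696, DESeq2 adjusted p = 0.00863 and edgeR adjusted p = 0.0363). It was also called there without CT-CTD 1 and CT-WD 1 together (-0.66, edgeR adjusted p = 0.00837) and without CT-WD 1 or without OE-CTD 4 (log2 fold change -0.67 and -0.54, edgeR adjusted p = 0.00794 and 0.0437, against 0.00696 to 0.260 over all alternatives).

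The summed level of endothelial markers was higher on average in OE on both diets. Summed over 12 markers, with Cdh5 the most abundant per length and none at 0 in any library, their level was 405, 405 and 409 CPM in CT-CTD and 482, 434 and 438 CPM in CT-WD. It was 520.2, 521, 501 and 444 CPM in OE-CTD and 524, 536, 548 and 516 CPM in OE-WD. On CTD all 12 had a higher mean in OE, and on WD 9 had, while Esam (47 ± 2.22 CPM in CT-WD and 41.9 ± 2.22 CPM in OE-WD), Cldn5 (24.4 ± 5.49 and 19.7 ± 4.98 CPM) and Egfl7 (54.5 ± 4.86 and 50.9 ± 14.5 CPM) had a lower one. In the genotype average 7 of the 12 were called, where 8.49% of all genes were. Each of the 7 was higher in OE and none lower. The median log2 fold change of the 12 was 0.36 against -0.0012 over all genes. Cdh5 itself, whose promoter drives the transactivator, had a log2 fold change of 0.36 ± 0.0639 (edgeR adjusted p = 0.00390, higher in 8 of 8 OE libraries).

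The calls for Vldlr and Gpihbp1 were lost once the log2 of this sum was a covariate, a fit chosen after the data were seen. In the genotype average it called 0 of all 15458 genes, where 8.49% were called without it. Vldlr had a log2 fold change of -0.13 there (edgeR adjusted p = 0.785, against 2.45e-05 to 0.785 over all alternatives) and of -0.16 on CTD (edgeR adjusted p = 0.777, against 0.00175 to 0.777). Gpihbp1 had -0.48 in the genotype average (edgeR adjusted p = 0.334, against 0.00622 to 0.334). Lpl and Angptl4 had -1.03 and -1.30 and did not pass the test (edgeR adjusted p = 0.0993 and 0.157, against 0.0993 to 0.987 and 0.0686 to 0.963). Of the total variance of the covariate, genotype held 68.5% on top of the part held by diet, and the 4 groups together held 84.2%. A difference between genotypes and one that goes with the endothelial markers are therefore poorly separated in this fit.

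Gpihbp1 was also expressed relative to these markers, a measure chosen after the data and the covariate fit were seen. Per 100 CPM of markers, Gpihbp1 reached 9.98, 8.55 and 9.19 CPM in CT-CTD and 8.29, 12.5 and 11.7 CPM in CT-WD. The OE libraries reached 7.01, 6.11, 8.04 and 5.93 CPM on CTD and 6.29, 5.76, 6.60 and 6.36 CPM on WD. Every OE library was below every CT library. The mean difference of OE minus CT, weighting the diets equally, was -3.52 CPM per 100 CPM, given without a test since both parts had been seen to differ. Leaving out single libraries gave -4.15 to -3.09 CPM per 100 CPM. The part of the mix of endothelial cells in the ratio was not tested.

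**Figure D3:**
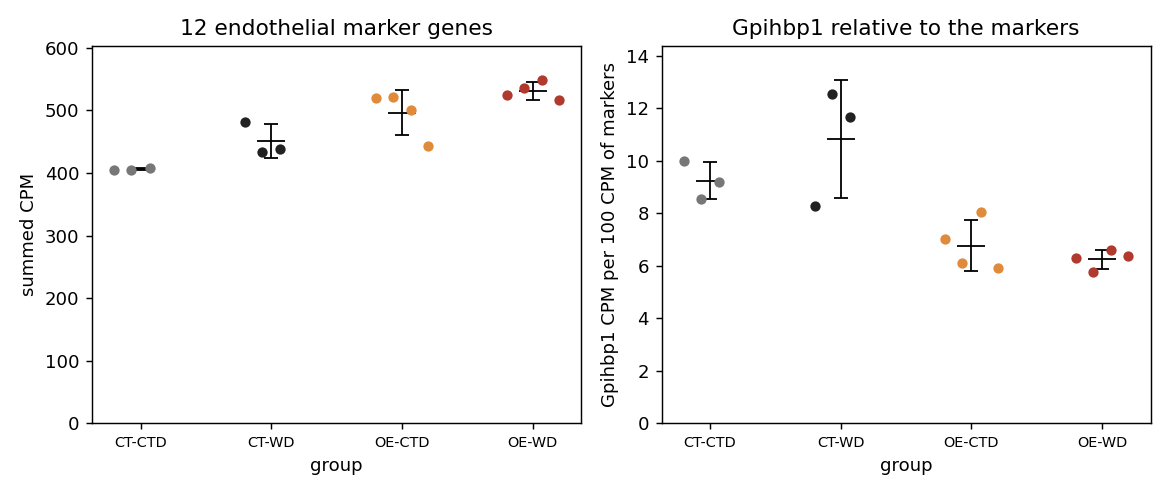
Summed CPM of the 12 endothelial marker genes (left) and Gpihbp1 CPM per 100 CPM of those markers (right) in every library of the 4 groups. Points are libraries and bars show the mean ± SD. In the right panel all 8 OE libraries lie below all 6 CT libraries.

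Lpl (ENSMUSG00000015568, protein-coding, chromosome 8, 68880491 to 68907448, plus strand), the enzyme itself, showed no difference that passed the test. CT libraries had 801, 576 and 747 CPM on CTD and 893, 628 and 668 CPM on WD. OE libraries had 815, 819, 659 and 464 CPM on CTD and 770.1, 722, 697 and 450.4 CPM on WD. The groups overlapped throughout, and OE-CTD 4 and OE-WD 4 were the lowest of all 14 libraries. Log2 fold changes were 0.043 for CT-WD against CT-CTD, -0.063 for OE-WD against OE-CTD, -0.039 for OE-CTD against CT-CTD and -0.15 for OE-WD against CT-WD, with edgeR adjusted p-values of 0.988, 0.9999, 0.958 and 0.769. The genotype average was -0.092, with a 95% interval of -0.40 to 0.22, and without OE-CTD 4 and OE-WD 4 it was 0.053. Lmf1 (ENSMUSG00000002279, protein-coding, chromosome 17, 25579174 to 25662826, plus strand) encodes the endoplasmic reticulum protein that the lipase needs to fold into its active dimer. It was the lowest of the 9 per length, with 8.93 to 13.8 CPM over all libraries. Lmf1 measured 11.3, 9.50 and 11.8 CPM in the CT-CTD group, 10.6, 13.8 and 11.7 CPM in the CT-WD group, 12, 11.4, 12 and 13.8 CPM in the OE-CTD group and 11.8, 11.1, 8.93 and 11.6 CPM in the OE-WD group. All 4 groups overlapped. Its log2 fold changes lay between -0.18 and 0.18 in the comparisons between groups, with no adjusted p-value from edgeR under 0.562.

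Angptl4 (ENSMUSG00000002289, protein-coding, chromosome 17, 33773750 to 33781575, minus strand) encodes a secreted inhibitor that inactivates lipoprotein lipase and is known to be induced by fasting and by fatty acids. CT-CTD libraries had 24.7, 23.9 and 18.98 CPM and CT-WD libraries 46.2, 36.9 and 29.2 CPM. OE-CTD libraries had 29.8, 21.1, 24.4 and 13.1 CPM and OE-WD libraries 34.8, 18.9, 21.99 and 15.1 CPM. Each CT-WD library was above each CT-CTD library, whereas the OE groups overlapped each other and OE-CTD 4 was lowest of all. Of the 9 genes, 1 had separate CT groups between diets, where 9.63% of all genes had them. The log2 fold change for CT-WD against CT-CTD was 0.74 (SE 0.288, 95% interval 0.12 to 1.35, edgeR adjusted p = 0.598) and did not pass the test. With the replicate number as a block it was 0.72 and was called (edgeR adjusted p = 0.0298, against 0.0298 to 0.981 over all alternatives), although CT libraries of the same number correlated at only 0.123 to 0.385. For OE-WD against OE-CTD it was 0.034 (SE 0.250), and for OE-WD against CT-WD -0.72 (SE 0.266, edgeR adjusted p = 0.187). With no filter on low counts the value for OE-WD against CT-WD was -0.72 and was called (edgeR adjusted p = 0.0262, against 0.0262 to 0.499 over all alternatives). The interaction of -0.70, with a 95% interval of -1.51 to 0.11, did not pass the test (edgeR adjusted p = 0.857). The diet difference in CT was 0.55 without CT-WD 1 and 0.19 with the endothelial covariate.

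Fabp3 (ENSMUSG00000028773, protein-coding, chromosome 4, 130308595 to 130315463, plus strand) encodes the fatty acid binding protein of heart and muscle, and was the most abundant of the 9 per length. In CT it stood at 491, 672 and 979 CPM on CTD and 542, 701 and 924 CPM on WD. In OE it was 1082, 1067, 1001 and 879 CPM on CTD and 800.3, 760.2, 725 and 726 CPM on WD. CT libraries were widely spread, with replicate 1 lowest and replicate 3 highest in both diets, whereas the OE libraries lay closer together and all OE-WD libraries were below all OE-CTD libraries. For OE-WD against OE-CTD the log2 fold change was -0.42 (SE 0.178, 95% interval -0.80 to -0.041, edgeR adjusted p = 0.9999). For OE-CTD against CT-CTD it was 0.50 (SE 0.194, edgeR adjusted p = 0.216) and for the genotype average 0.28 (SE 0.137, edgeR adjusted p = 0.230). None passed the test without a block. With the replicate number as a block, the OE-WD against OE-CTD value was -0.42 and was called (edgeR adjusted p = 0.0484), although OE libraries of the same number correlated at only 0.0711 to 0.338. Without CT-CTD 1 the OE-CTD against CT-CTD value was 0.28, and without CT-CTD 3 it was 0.79. The genotype average was 0.17 without CT-CTD 1, 0.43 without CT-CTD 3 and 0.090 without CT-CTD 1 and CT-WD 1 together. Fabp3 shares 81 exon bases with Zcchc17 and 80 with Gm10570, both on the opposite strand, at a mean of 32.7 and 0.488 CPM. The strand setting of the counting is not given in the sources used here, so reads from the shared bases cannot be told apart.

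The remaining uptake genes did not pass the test in any comparison. Cd36 (ENSMUSG00000002944, protein-coding, chromosome 5, 17781690 to 17888801, minus strand), the main membrane receptor for long chain fatty acids, had 418, 307 and 410.4 CPM in the CT-CTD group, 404, 356 and 402 CPM in the CT-WD group, 405, 449.5, 424 and 338 CPM in the OE-CTD group and 410.4, 409, 369 and 307 CPM in the OE-WD group. All groups overlapped, with OE-WD 4 and CT-CTD 2 lowest, and the log2 fold changes between groups were -0.11 to 0.094. Slc27a1 (ENSMUSG00000031808, protein-coding, chromosome 8, 71568882 to 71587302, plus strand), which encodes fatty acid transport protein 1, had 184, 128 and 158 CPM in the CT-CTD group, 166, 161 and 132 CPM in the CT-WD group, 181, 168, 163 and 179 CPM in the OE-CTD group and 144, 148, 155 and 153 CPM in the OE-WD group. The OE-WD libraries were all below the OE-CTD libraries, and the log2 fold change of -0.20 (SE 0.101, edgeR adjusted p = 0.9999) did not pass the test. Fabp3 and Slc27a1 were thus the 2 of 9 genes with separate OE groups between diets, where 4.08% of all genes had them. For OE-CTD against CT-CTD 1 of 9 had separate groups, against 15.5%, and for OE-WD against CT-WD 2 of 9, against 11.6%. Slc27a4 (ENSMUSG00000059316, protein-coding, chromosome 2, 29802634 to 29817522, plus strand), which encodes fatty acid transport protein 4, had 16.2, 12.7 and 13.9 CPM in the CT-CTD group, 15.2, 15.03 and 13.1 CPM in the CT-WD group, 15.3, 13.8, 15.5 and 18.2 CPM in the OE-CTD group and 14.4, 14.9, 14.4 and 17.7 CPM in the OE-WD group. Replicate 4 was the highest in both OE groups, and the log2 fold changes were -0.029 to 0.14.

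Other genes of the pathway were read from 5 lists. Of 21 further genes of intravascular lipolysis 14 were tested, and 4 were called in the genotype average, where 8.49% of all genes were, all higher in OE, with a median log2 fold change of 0.27 against -0.0012 over all genes. They were Pdia4, a disulfide isomerase of the endoplasmic reticulum (0.64 ± 0.104), Hspg2, which encodes perlecan (0.51 ± 0.0985), Pcsk6, a proprotein convertase (0.42 ± 0.0933), and Sdc2, which encodes syndecan 2 (0.54 ± 0.126), with log2 fold changes given ± SE. Their edgeR adjusted p-values were 0.00268, 0.00635, 0.0134 and 0.0165, and each was higher than the CT mean of its diet in 8 of 8 OE libraries. The share of all genes with such a count was not taken, and OE libraries that share a number may be related. Pdia4 (0.63 ± 0.148) and Pcsk6 (0.56 ± 0.133) were also called on CTD (edgeR adjusted p = 0.0358 and 0.0385). Of 20 further genes of fatty acid uptake and activation 14 were tested, and 3 were called higher in OE in the genotype average and 2 lower, with a median of -0.0044. Cav1 (0.26 ± 0.0634) and Cavin1 (0.25 ± 0.0564) of caveolae and Dbi, an acyl-CoA binding protein (0.35 ± 0.0786), were higher, with edgeR adjusted p = 0.0187, 0.0130 and 0.0132, each in 8 of 8 OE libraries. The acyl-CoA synthetase gene Acsl6 (-0.34 ± 0.0766) was lower, with edgeR adjusted p = 0.0142, in 8 of 8 OE libraries. Acsl3, another such gene, was called lower in the average (-0.39 ± 0.114, edgeR adjusted p = 0.0439) but in 4 of 8 OE libraries, those on CTD, where it had 36.9 ± 6.95 CPM in CT and 19.03 ± 1.67 CPM in OE (-0.96 ± 0.161, edgeR adjusted p = 0.00730). On WD it had a higher mean in OE, 29.8 ± 1.54 CPM against 26.6 ± 8.10 CPM in CT, and did not pass the test (0.17 ± 0.163, edgeR adjusted p = 0.648). On CTD Dbi had a log2 fold change of 0.45 ± 0.111 (edgeR adjusted p = 0.0442).

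Of 12 further lipoprotein receptor genes 10 were tested, and the genotype average called Lrp1 higher (0.74 ± 0.165, edgeR adjusted p = 0.0130) and Sort1, which encodes the sorting receptor sortilin, lower (-0.58 ± 0.155, edgeR adjusted p = 0.0312), each in 8 of 8 OE libraries, with a median of 0.20. These 2 of 10 stand against 8.49% of all genes called in that average, as do the counts of the next 2 lists. All 18 genes of triglyceride storage and lipolysis were tested, and 2 were called lower in OE, none higher, with a median of 0.034. Lpin1, a phosphatidate phosphatase, had a log2 fold change of -0.57 ± 0.106 (edgeR adjusted p = 0.00468) and Plin4, a lipid droplet coat protein, of -0.63 ± 0.134 (edgeR adjusted p = 0.0102), each lower in 8 of 8 OE libraries. Lpin1 was also called for OE-WD against CT-WD (-0.71 ± 0.149, edgeR adjusted p = 0.0407). Of the 23 regulators of fatty acid supply, all tested, 3 were called higher and 1 lower, with a median of 0.086. Meox2, a homeobox factor of endothelium (0.62 ± 0.180), the peptide gene Apln (1.14 ± 0.324) and its receptor gene Aplnr (0.93 ± 0.236) were higher, and the forkhead factor gene Foxo1 (-0.63 ± 0.179) was lower, with edgeR adjusted p = 0.0453, 0.0408, 0.0240 and 0.0408, and with 7, 8, 6 and 8 of 8 OE libraries in that direction. Foxo1 had 23.3 ± 6.19 CPM in CT-CTD, 43.6 ± 20.4 CPM in CT-WD, 19.8 ± 2.81 CPM in OE-CTD and 21.4 ± 2.03 CPM in OE-WD. For the diet comparisons in CT and in OE, the diet average and the interaction, edgeR called 0 genes of the 5 lists and limma on FPKM 0, while DESeq2 called Sdc4 for diet in CT, Lpin1 for the diet average and Acsl3 for the interaction. At an unadjusted p-value under 0.05 edgeR had 12, 3, 12 and 7 of the 79 genes tested in these comparisons, against 7.28%, 4.2%, 5.96% and 5.92% of all genes. Of the 22 calls for list genes in the genotype comparisons, 11 were lost with the slow fiber covariate, 8 with limma on log2(FPKM + 1), 11 with limma on log2(FPKM + 0.1) without a filter and 5 without OE-CTD 4 and OE-WD 4. The replicate block ended 19 of the 22. CT and OE libraries of the same number correlated at -0.23 to 0.0465, so the block cannot decide on these calls. Over the fits without single libraries, these calls were kept 217 times and lost 91 times. The endothelial covariate left 0, 1 and 3 of all genes called in the genotype average, on CTD and on WD, so few calls of any kind could be kept, and 7 of the 22 changed sign.

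Markers of other cells were measured beside these genes. The 8 adipocyte markers, with Fabp4 the most abundant per length and none at 0, summed to 357 ± 139.9 CPM in CT-CTD, 309 ± 66.7 CPM in CT-WD, 281 ± 85.8 CPM in OE-CTD and 270.4 ± 36.1 CPM in OE-WD (SD, n = 3, 3, 4 and 4). In the genotype average, where 8.49% of all genes were called, 1 of the 8, Lep, was called, higher in OE (2.25 ± 0.506 on the log2 scale, edgeR adjusted p = 0.0136, in 8 of 8 OE libraries) at 14.9 CPM in OE-CTD and 3.89 CPM in CT-CTD. At an unadjusted p-value under 0.05, 2 of the 8 were lower in OE and 1 higher, against 23.9% of all genes. The other 7 had a lower mean in OE on CTD, whereas on WD 6 of the 8 had a higher one. Plin1, Cidec and Fabp4 belong both to these markers and to the lists above. The 8 macrophage markers, with C1qa the most abundant per length, summed to 42.4 ± 14.2, 60.3 ± 30.4, 71.2 ± 13.1 and 71.1 ± 17.6 CPM in the same order. In the genotype average edgeR called 0 of them, with 5 at an unadjusted p-value under 0.05, each higher in OE, where 23.9% of all genes passed, limma on FPKM 0 and DESeq2 2. Their median log2 fold change was 0.54, and 8 of 8 had a higher mean in OE on CTD and 7 of 8 on WD. Of the 8 fast fiber markers, of which Myh4 and Tnnt3 also mark skeletal muscle here, and of the 4 blood markers tested, edgeR, DESeq2 and limma called 0 in the genotype average, with 0 at the unadjusted threshold. The part of these cells in the levels of the 9 genes was not tested.

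Genes with the most similar pattern were sought over the 14 libraries among 9100 protein-coding genes at a mean of at least 5 CPM. The measure was Pearson's r of log2 CPM, given with the value after group means were removed, as a description with no test over libraries that share genotype and diet. Vldlr was closest to Ccdc6 (0.935, 0.848), Cib2 (0.931, 0.890) and Rnf126 (0.909, 0.843). Gpihbp1 was closest to Gmppa (0.909, 0.880), Ccnl1 (0.905, 0.798) and Txndc17 (0.903, 0.83), and Angptl4 to Luc7l3 (0.868, 0.848), Adprm (0.860, 0.926) and Gnl3 (0.844, 0.815). With group means removed, r was lower for each neighbor of Vldlr and Gpihbp1. For Lpl the nearest were Tdp2 (0.928, 0.951), Irf1 (0.917, 0.937) and Peli1 (0.915, 0.918), and for Lmf1 Tnnt1 (0.816, 0.762), Atg7 (0.816, 0.790) and Myl2 (0.809, 0.832). The muscle genes Tnnt1 and Myl2 near Lmf1 encode slow fiber proteins. For Cd36 the nearest were Wdr20 (0.861, 0.868), Smarce1 (0.858, 0.891) and Acad9 (0.852, 0.846), and for Fabp3 Arl6ip5 (0.895, 0.877), Letm1 (0.883, 0.901) and Acadl (0.882, 0.785). Acadl, which encodes the long chain acyl-CoA dehydrogenase, belongs to fatty acid oxidation. For Slc27a1 they were Aifm2 (0.839, 0.847), Bud13 (0.824, 0.891) and Wwox (0.812, 0.906), and for Slc27a4 Wnt4 (0.913, 0.924), Lrfn3 (0.889, 0.881) and Asxl1 (0.886, 0.888).

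Promoter sequence from RefSeq (GRCm38.p6) was found for 6 of the 9 genes, Lmf1, Cd36, Fabp3, Slc27a1, Slc27a4 and Vldlr. Slc27a1 has 3 windows, Vldlr 2 and the others 1 each. Each window held 250 bases before a gene start and 50 after it, and was searched on both strands for CACGTG, the E-box that Myc binds, for GTAAACA of Foxo factors, for AGGTCA repeated in tandem 1 base apart, and for AGAACA and TGTTCT 3 bases apart. Of all 32851 promoters, 7.15% held the first, 3.65% the second, 0.0396% the tandem repeat and 0.00913% the last pair. Among the 6 genes there was 1 match, an E-box in the third window of Slc27a1, at position -202 counted from the start, and it overlaps no other motif. The letters are a description and show no binding. The 250 bases before both starts of Vldlr, the gene with the lowest adjusted p-value, and before that start of Slc27a1 are shown, with the E-box in capitals.
Vldlr, chr19:27216234-27216483, plus strand: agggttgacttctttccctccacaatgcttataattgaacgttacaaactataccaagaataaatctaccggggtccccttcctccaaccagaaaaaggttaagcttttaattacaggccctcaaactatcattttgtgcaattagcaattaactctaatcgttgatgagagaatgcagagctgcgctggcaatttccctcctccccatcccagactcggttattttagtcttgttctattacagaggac
Vldlr, chr19:27216770-27217019, plus strand: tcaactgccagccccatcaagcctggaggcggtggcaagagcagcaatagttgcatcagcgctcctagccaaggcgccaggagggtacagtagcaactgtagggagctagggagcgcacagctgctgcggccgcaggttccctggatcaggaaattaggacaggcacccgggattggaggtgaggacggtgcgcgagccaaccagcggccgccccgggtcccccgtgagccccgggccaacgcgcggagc
Slc27a1, chr8:71570344-71570593, plus strand: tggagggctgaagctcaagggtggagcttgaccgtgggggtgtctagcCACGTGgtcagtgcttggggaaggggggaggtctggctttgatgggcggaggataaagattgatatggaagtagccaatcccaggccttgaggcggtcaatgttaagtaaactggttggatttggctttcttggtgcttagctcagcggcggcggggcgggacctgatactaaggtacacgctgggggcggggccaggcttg

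Mouse Myc, the endogenous counterpart of the human transgene, was not called in any comparison. It had 5.05 ± 0.921 CPM in CT-CTD, 8.99 ± 4.21 CPM in CT-WD, 5.60 ± 1.74 CPM in OE-CTD and 6.40 ± 1.76 CPM in OE-WD (SD, n = 3, 3, 4 and 4). The log2 fold change for the genotype average was -0.17 (SE 0.219, edgeR adjusted p = 0.696). Human transgene transcripts were not analysed here, so these levels do not check the labels of the OE libraries.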

How the data were processed

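The authors deposited counts, the whole reads assigned to each Ensembl gene, and FPKM, in which the authors divided them by gene length and a library total. The submitters' processing notes name HISAT2 2.0.5, featureCounts 1.5.0-p3 and mm10, and the extract protocol in the labels names poly-T beads. Positions are given as deposited, and 53585 of 54495 identifiers shared with the mouse reference annotation lie at the same place in both. Libraries were grouped by their labels. The tests on counts used R 4.3.3 and edgeR 4.0.16 (TMM, filterByExpr, quasi-likelihood, a mean for each of 4 groups, all 14 libraries), adjusting over 15458 genes by Benjamini-Hochberg within each of 7 comparisons. The filter removed at most 0.0694% of a library's counts, and the biological coefficient of variation was 17%. Log2 CPM used a prior count of 2. Alternatives used DESeq2 1.42.0, limma 3.58.1 on log2(FPKM + 1) with a filter on low FPKM and on log2(FPKM + 0.1) without one, RLE scaling, no filter, a replicate block, slow fiber or adipocyte markers as a covariate, only the groups compared, and each library left out. Chosen only once values were known were the endothelial covariate, the 2 pairs of libraries left out and the Gpihbp1 ratio. The fits were tested on simulated data. Libraries of a group differed by a chi-square per degree of freedom of 7.32 to 46.7, where counting noise alone gives about 1. Replicate numbers were checked as a pairing by correlating deviations from group means, which gave 0.385, 0.123 and 0.203 for numbers 1 to 3 of the CT groups, where CT-CTD 2 did not correlate best with its own number. Numbers 1 to 4 of the OE groups gave 0.0711 to 0.338. The block rests on this check alone, since the labels name no shared litter or batch. The text names the 9 genes, each list gene called in some comparison (adjusted p-value under 0.05), mouse Myc and, for each of the 9, the 3 genes of highest r. The members and lists were chosen with earlier results of these data known.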

Additional observations from a re-analysis of the deposited data

Results flagged for a closer look

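Slc27a4 in OE-WD 4, at 17.72 CPM, lay far from the other OE-WD libraries, with a gap to the nearest of 0.837 of the group's range, just above the 95% critical value of Dixon's test. Of the 18 groups of 4 libraries tested for the 9 genes, 1 was marked in this way, and chance marks about 1 in 20. The same library had the highest summed level of skeletal muscle markers of all 14, at 177669 CPM, and the part of this in the Slc27a4 level was not tested.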

How the results depend on the processing

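The 9 genes in 7 comparisons gave 63 log2 fold changes, of which 35 changed sign in some alternative. Each of these had an unadjusted edgeR p of at least 0.0611 and a log2 fold change of at most 0.39 in size as reported, and the cause was not tested. CT diet and OE diet stand here for WD against CTD within a genotype, CTD genotype and WD genotype for OE against CT on a diet. RLE scaling, no filter, DESeq2, both limma fits and fits of only the 2 groups turned none. In the genotype average the number of genes called, 2 as reported, was 1 with limma on log2(FPKM + 1), with limma on log2(FPKM + 0.1) without a filter and with the block (Gpihbp1 lost at adjusted p = 0.0502, 0.0824 and 0.0793), 0 with the slow fiber or endothelial covariate, and 1 to 2 without single libraries. For OE-CTD against CT-CTD it was 1 as reported and 0 with both limma fits, the block (Vldlr -0.63, adjusted p = 0.0874) and the slow fiber or endothelial covariate, and 0 to 1 without single libraries. For OE-WD against CT-WD it was 0 as reported, 3 with no filter (Gpihbp1, Angptl4 and Vldlr), 2 with DESeq2, with the adipocyte covariate and without CT-CTD 1 and CT-WD 1 (Gpihbp1 and Vldlr), and 0 to 2 without single libraries. The share of all genes called rose with it, from 0.725% to 2.01%, 3.71%, 4.1% and 10.7% in these 4. In the genotype average this share fell from 8.49% to 5.86% and 2.42% with the limma fits and 2.35% with the block. With the slow fiber and endothelial covariates it was 2.64% and 0%. For OE-CTD against CT-CTD it fell from 2.67% to 1.21% and 0.387% with the limma fits and 0.0906% with the block. These covariates gave 0.543% and 0.00647% there. With the replicate block 1 gene was called in the CT diet comparison (Angptl4), against 0.0841% of all genes. In the OE diet comparison 1 was called (Fabp3 -0.42, adjusted p = 0.0484), against 0.0129% of all genes. OE libraries of the same number had correlations of 0.0711, 0.138, 0.142 and 0.338, against 0.385, 0.123 and 0.203 in CT. OE-CTD 1 and CT-CTD 2 were the exceptions in not correlating best with their own number. The pairs between genotypes had -0.230 to 0.0465, with CT and OE libraries mostly correlating best with another number, so the block cannot decide on genotype calls. The block changed no other call among the 9 genes. Counts at an unadjusted p under 0.05 moved from 2 to 1 for CT diet without CT-CTD 1 and CT-WD 1 (1 to 2 without single libraries), from 1 to 0 for OE diet with limma and to 2 with the block, the 2 groups only or without CT-CTD 1 and CT-WD 1 (0 to 2 without single libraries), from 2 to 1 for CTD genotype with the slow fiber covariate (1 to 2 without single libraries), from 0 to 1 or 2 for the diet average (1 with no filter, DESeq2, the endothelial covariate and both pairs of libraries left out, 2 with the block and the adipocyte covariate, 0 to 2 without single libraries), from 2 to 4 for the genotype average with no filter and DESeq2 (2 to 4 without single libraries), and from 0 to 3 for the interaction with no filter and the block, to 2 with the slow fiber or adipocyte covariate and either pair left out, and to 1 with the endothelial covariate (0 to 3 without single libraries). Both pairs, OE-CTD 4 with OE-WD 4 and CT-CTD 1 with CT-WD 1, and the endothelial covariate were chosen after the data were seen. Log2 fold changes that turned were, with the slow fiber covariate, Lpl 0.053 (CTD genotype), Angptl4 -0.040 (OE diet) and 0.37 (CTD genotype), Lmf1 -0.063 (CTD genotype), 0.0028 (diet average) and -0.19 (genotype average), Cd36 -0.027 (genotype average), Fabp3 -0.00089 (CT diet) and -0.077 (WD genotype), Slc27a1 -0.018 (genotype average), Slc27a4 0.0040 (OE diet), -0.0066 (CTD genotype), -0.014 (WD genotype), 0.0076 (diet average) and -0.010 (genotype average) and Vldlr 0.0047 (CT diet). With the adipocyte covariate they were Lpl 0.10 (CTD genotype), 0.025 (diet average) and 0.024 (genotype average), Angptl4 0.15 (CTD genotype), Lmf1 -0.027 (genotype average) and Fabp3 -0.016 (CT diet). With the endothelial covariate they were Lpl -0.50 (CT diet) and 0.11 (interaction), Angptl4 -0.26 (OE diet) and -0.037 (diet average), Lmf1 0.21 (WD genotype) and 0.17 (diet average), Cd36 -0.17 (CT diet), -0.30 (CTD genotype) and -0.34 (genotype average), Slc27a4 0.068 (OE diet) and 0.12 (diet average) and Vldlr 0.19 (CT diet). With the block they were Lpl 0.12 (CTD genotype), 0.016 (WD genotype) and 0.067 (genotype average), Angptl4 0.15 (CTD genotype), Lmf1 -0.027 (genotype average) and Cd36 0.033 (WD genotype). Without OE-CTD 4 and OE-WD 4 they were Lpl 0.11 (CTD genotype) and 0.053 (genotype average), Angptl4 0.15 (CTD genotype), Lmf1 -0.031 (genotype average) and Cd36 0.029 (WD genotype). Without CT-CTD 1 and CT-WD 1 they were Lpl -0.029 (CT diet), 0.060 (CTD genotype), 0.029 (WD genotype) and 0.045 (genotype average), Angptl4 0.049 (CTD genotype), Lmf1 0.043 (diet average) and -0.014 (genotype average), Fabp3 -0.022 (CT diet) and -0.11 (WD genotype), Slc27a1 0.040 (CT diet) and 0.034 (WD genotype), Slc27a4 0.028 (diet average) and Vldlr 0.092 (CT diet). Leaving out single libraries, with a sign change in at least 1 fit, gave ranges of Lpl -0.13 to 0.14 (CT diet), -0.21 to 0.082 (OE diet), -0.17 to 0.11 (CTD genotype), -0.24 to 0.026 (WD genotype), -0.096 to 0.063 (diet average) and -0.26 to 0.065 (interaction), Gpihbp1 -0.12 to 0.077 (OE diet), Angptl4 -0.25 to 0.21 (OE diet) and -0.20 to 0.16 (CTD genotype), Lmf1 -0.072 to 0.027 (diet average) and -0.028 to 0.071 (genotype average), Cd36 -0.096 to 0.10 (CT diet), -0.035 to 0.17 (CTD genotype), -0.11 to 0.032 (WD genotype), -0.10 to 0.0026 (diet average) and -0.043 to 0.063 (genotype average), Fabp3 -0.20 to 0.31 (CT diet) and -0.11 to 0.28 (WD genotype), Slc27a1 -0.16 to 0.092 (CT diet), -0.12 to 0.033 (WD genotype) and -0.0072 to 0.12 (genotype average), Slc27a4 -0.058 to 0.11 (CT diet), -0.11 to 0.047 (OE diet), -0.044 to 0.038 (diet average) and -0.15 to 0.028 (interaction) and Vldlr -0.17 to 0.13 (CT diet), -0.033 to 0.12 (diet average) and -0.034 to 0.27 (interaction). Of 22 calls for list genes 7 turned with the endothelial covariate, all in the genotype average (Sdc2 -0.061, Lrp1 -0.11, Sort1 0.39, Plin4 0.0024, Foxo1 0.35, Meox2 -0.56 and Aplnr -0.30), and the other 15 were lost. No other alternative turned one, and 11 were lost with the slow fiber covariate, 19 with the block and 0 with DESeq2. Mean FPKM of each gene moved by less than its SD within groups under TMM counts per kilobase, the median and each library left out.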
